A study of Rattus norvegicus with 24 samples.

Results

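Complement and coagulation are linked cascades of blood proteins in which inactive enzymes are cut into active ones, one step after another. Complement marks microbes and damaged cells for removal, calls in leukocytes through small cleaved peptides, and can assemble a pore in membranes. Coagulation ends in a fibrin clot, which endothelial anticoagulants restrain and plasmin dissolves. Most of the circulating proteins are made in the liver, while lung macrophages, epithelium and endothelium make some components, receptors and inhibitors on site.

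The mRNA of 44 such genes was followed in the lungs of rats that had inhaled hexanal, a volatile aldehyde. A gene belonged to the set when its symbol was on a list and the accession of a probe mapped to that symbol, a rule that uses no measured value. Of the 44 genes, 38 had a probe. For 36 of them a probe stood clearly above background on no fewer than 5 arrays of some group of 6, and 21255 genes or unnamed probes met this filter in all. No probe was matched to C4b, C5, C7, C8g, F5 or F11, which are not analysed here, and F7 and Serpinc1 did not pass the filter.

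Male and female Fischer-344 rats, 7 to 8 weeks old, breathed either filtered clean air (control) or hexanal at 600, 1000 or 1500 ppm (the low-, middle- and high-dose groups). Each group held 6 rats, 3 males and 3 females, and each rat was hybridized alone on a one-colour Agilent array. Exposure lasted 4 h a day on 5 days a week. Sources differ on the length of exposure (4 or 5 weeks) and on the unit of dose (ppm, or mg/m3 with identical figures), and ppm is used here. Bulk RNA of lung tissue was measured in all groups, so that fewer cells of a type and less RNA per cell cannot be told apart.

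A level is the processed signal on the log2 scale, less the 75th percentile of the same array, and a difference of 1 on this scale is a 2-fold change. The 75th percentile lay between 1700.86 and 3132.89 signal units, and 70.7% to 81.83% of probes were well above background. Of 10 lung epithelium markers, 9 passed the filter and their summed level stayed between 9.35 and 9.73 in all rats. Markers of other tissues varied far more, with a summed level from 1.78 to 6.99 for heart muscle and from 1.31 to 3.41 for hepatocytes. The hepatocyte sum rests mostly on Cyp2e1, which ran from 0.50 to 2.29 over all rats. The 24 arrays lay on 6 slides of 4 arrays, each slide holding rats of 1 sex. The 1000 and 1500 ppm groups shared no slide with the control group, so these doses cannot be told apart from the slide except through the groups in between. A probe's level was compared between rats and not with the level of another probe.

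Few complement and coagulation transcripts passed a test against control. At 600 ppm, Cfi was higher by the study's rule of at least 1.5-fold with an unadjusted p-value under 0.05. At 1000 ppm Cfi was again the called member. At 1500 ppm C6, Cfi and Cfd were higher and Serpinf2 was lower. No member had an adjusted p-value under 0.05 in limma at any dose, where 2, 1 and 6 members had an unadjusted p-value under 0.05 at 600, 1000 and 1500 ppm. Of all genes 4.33%, 8.99% and 6.97% had such a p-value at these doses. The 2 and 1 of 36 lie near or below the first 2 of these shares. The 6 of 36 at 1500 ppm lie above the share at that dose, and the set as a whole was not tested.

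Against all 21255 genes or probes, these counts read as follows. At 600 ppm, 1 of 36 members was called higher and 0 lower, where 0.16% of all genes were called higher and 0.456% lower. At 1000 ppm, 1 of 36 was called higher and 0 lower, against 1.29% and 0.343% of all genes. At 1500 ppm, 3 of 36 were called higher and 1 lower, against 0.701% and 0.522%. The median difference of the members was 0.07, 0.04 and 0.05 at the 3 doses, and that of all genes was -0.00, 0.00 and 0.01. Among the members 25, 22 and 21 of 36 were above control at the 3 doses. The 3 comparisons share the same 6 control rats. An unadjusted p under 0.05 is the study's own limit, and a call below rests on it unless an adjusted p is named. In 0 of 36 members did all 6 exposed rats lie above, or all below, the 6 control rats at any dose, against 0.278%, 0.456% and 0.48% of all genes at 600, 1000 and 1500 ppm.

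**Figure D1:**
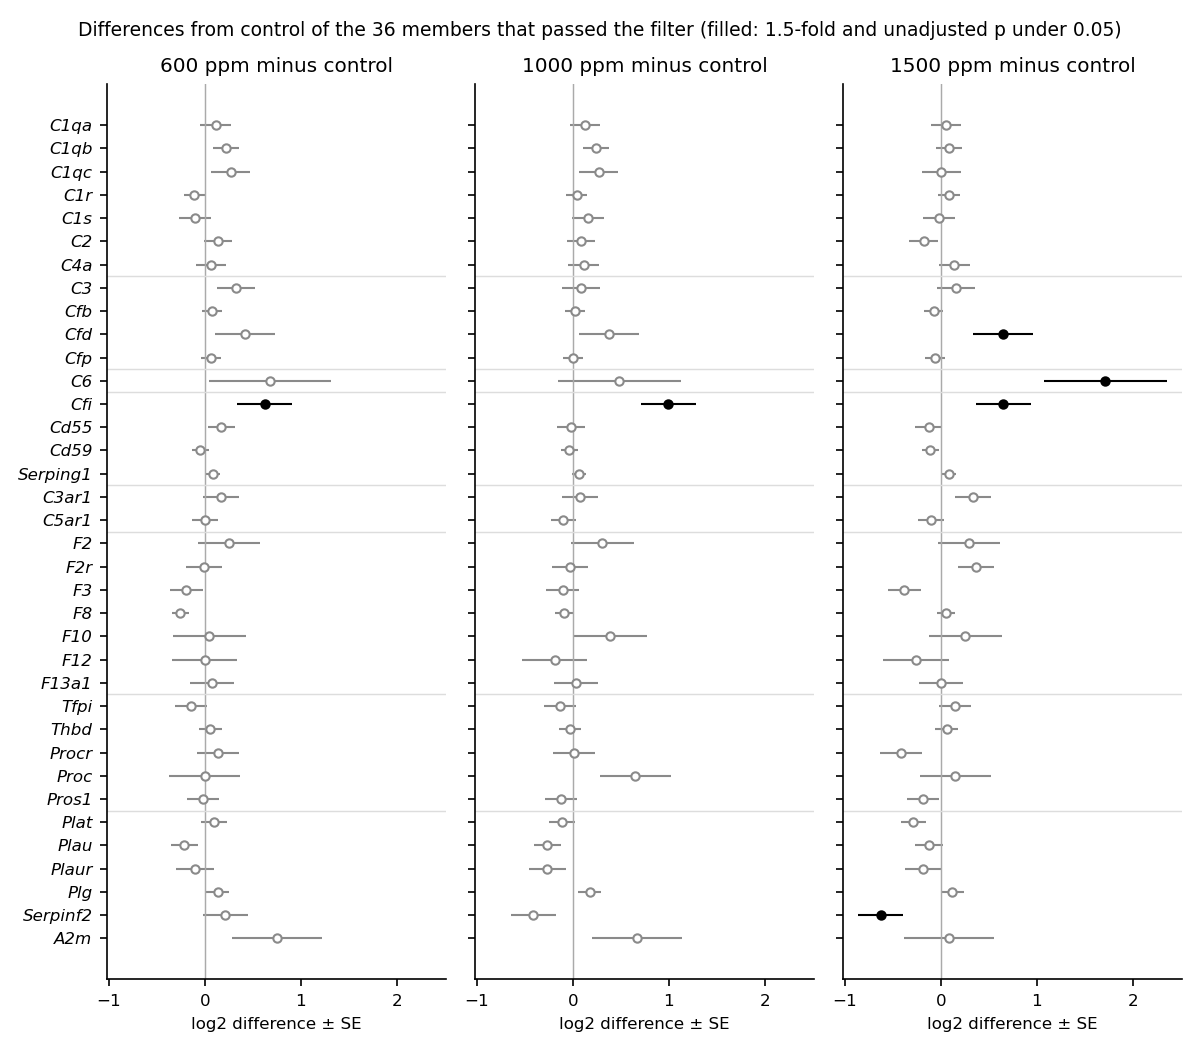
Log2 difference from control of each of the 36 members at 600, 1000 and 1500 ppm, one row per gene grouped by role, with the standard error as a bar. Filled points pass 1.5-fold with an unadjusted p-value under 0.05: Cfi at all 3 doses, and C6, Cfd and Serpinf2 at 1500 ppm, where C6 lies farthest from 0 at 1.71.

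The classical pathway starts when C1q, built from the products of C1qa, C1qb and C1qc, binds antibody or a surface and activates the proteases C1r and C1s, which cleave C4 and C2. Of 8 listed genes of this pathway 7 passed the filter and 0 were called at any dose. Their differences from control ran from -0.11 to 0.27 at 600 ppm, from 0.04 to 0.27 at 1000 ppm and from -0.18 to 0.14 at 1500 ppm. C1qb was among the members with the smallest p-values at 600 and 1000 ppm. Its level in the control rats had a lowest, median and highest value of 2.05, 2.46 and 2.62. The low-dose rats had 2.10, 2.69 and 2.84, the middle-dose rats 2.26, 2.69 and 2.89, and the high-dose rats 2.24, 2.46 and 2.74. Although 4 of 6 rats at 1000 ppm lay above all control rats, the groups overlapped. The difference of C1qb was 0.22 ± 0.13 (SE) at 600 ppm (exact permutation p = 0.158). At 1000 ppm it was 0.24 ± 0.13, with an adjusted p of 0.613 in limma (exact permutation p = 0.0952). C4a, the precursor of the C4 fragments of the C3 convertase, ranged from 5.18 to 6.52 over the 1500 ppm rats, around a control range of 5.33 to 5.94.

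The 3 C1q genes followed each other from rat to rat, and the promoters of C1qa and C1qb, which lie on the same strand of chromosome 5, are shown for that reason. They were taken from RefSeq on the rat assembly GRCr8, with 250 bases before and 50 after the start of the gene, written 5′ to 3′ on the minus strand. The table held such a sequence for 30 of the 44 members. Capitals mark GAGGAA, 1 form of the letters bound by the myeloid factor PU.1, or the same letters on the opposite strand. Other forms of these letters were not searched.
C1qa, chr5:154419884-154420183: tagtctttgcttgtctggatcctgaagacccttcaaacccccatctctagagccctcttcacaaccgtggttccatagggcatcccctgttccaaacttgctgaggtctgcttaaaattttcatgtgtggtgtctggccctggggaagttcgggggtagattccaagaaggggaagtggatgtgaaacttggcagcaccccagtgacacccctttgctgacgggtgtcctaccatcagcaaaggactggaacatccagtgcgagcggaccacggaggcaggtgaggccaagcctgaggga
C1qb, chr5:154407778-154408077: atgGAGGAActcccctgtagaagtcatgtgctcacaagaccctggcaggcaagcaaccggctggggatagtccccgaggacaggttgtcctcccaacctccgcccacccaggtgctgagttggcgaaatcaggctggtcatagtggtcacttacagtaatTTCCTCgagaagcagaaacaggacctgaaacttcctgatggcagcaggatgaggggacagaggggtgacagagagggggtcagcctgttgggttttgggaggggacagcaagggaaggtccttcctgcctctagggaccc
The C1qb window held 2 matches, with the leftmost letter at -247 from the start site (strand shown) and at -90 (opposite strand), and the C1qa window held 0. Of all 33469 promoter windows of this length 27.6% held GAGGAA on either strand, and of the 30 member windows 40% did (12 windows). The letters TATAAA were in 14.2% of all windows and in 1 member window, that of C6, and CCAAT was in 37.5% of all windows and in 6 member windows. Neither of these was in the C1qa or C1qb window. A match describes letters in the window and is not a measured site.

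Across the 24 rats, with each gene centred on its dose group, C1qa and C1qb had a Pearson r of 0.92 and a Spearman rho of 0.87. C1qa and C1qc had an r of 0.88 and a rho of 0.82, and C1qb and C1qc an r of 0.92 and a rho of 0.86. In a permutation test of 100000 resamples within dose groups, the p-value of each Pearson r was 1e-05, the smallest these resamples can give, and adjusted over the 11 pairs tested it was 3.67e-05. Without the 2 rats farthest from the median of the first gene, r remained 0.87, 0.82 and 0.88 in the same order. Centred on dose group and sex, r was 0.93, 0.75 and 0.84. C1r and C1s, which are neighbours in the same complex, had an r of 0.58 (adjusted permutation p = 0.0102), and a rho of 0.49 (adjusted permutation p = 0.0396), with r at 0.47 without the 2 farthest rats.

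**Figure D2:**
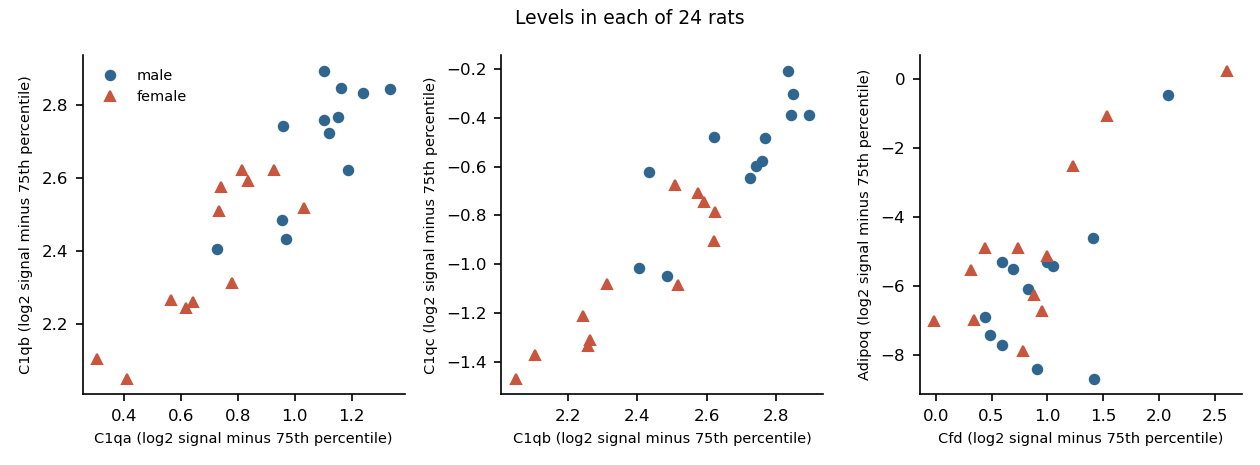
Level of C1qb against C1qa, of C1qc against C1qb and of Adipoq against Cfd in each of 24 rats (log2 signal minus the 75th percentile of the array), males as circles and females as triangles. The C1q points lie along a line with most females toward the low end. In the Cfd panel 4 rats stand apart at an Adipoq level above -3, between -2.54 and 0.23, while the other 20 lie between -8.69 and -4.60.

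C3 is the protein on which all complement pathways meet, and factor B (Cfb), factor D (Cfd) and properdin (Cfp) form and stabilize the convertase of the alternative pathway. All 4 genes passed the filter. C3 had a lowest, median and highest level of 2.33, 2.96 and 3.45 in control rats and 2.88, 3.22 and 3.80 at 600 ppm, overlapping ranges with a difference of 0.32 ± 0.20 (SE, exact permutation p = 0.162). Its difference was 0.09 at 1000 ppm and 0.16 at 1500 ppm. Cfb differed from control by 0.07, 0.02 and -0.08 at the 3 doses and Cfp by 0.06, 0.00 and -0.06.

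Cfd, the protease that cleaves factor B and is abundant in fat cells, had a lowest, median and highest level of -0.01, 0.64 and 0.95 in control rats. In low-dose rats they were 0.48, 0.94 and 1.42, in middle-dose rats 0.32, 0.80 and 2.08, and in high-dose rats 0.44, 0.98 and 2.61. Of the 6 rats at 1500 ppm 3 lay above all control rats. The mean was 0.57 ± 0.35 in control and 1.22 ± 0.77 at 1500 ppm (SD, n = 6), a 1.57-fold difference of 0.65 ± 0.31 (SE) with an adjusted p of 0.716 in limma. The exact permutation p, two-sided here and below, was 0.0671.

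The highest Cfd levels were found together with high Adipoq, which encodes the fat cell hormone adiponectin. Adipoq was above -3, a limit chosen after seeing the data, in 1000 ppm rats 13 and 33 and 1500 ppm rats 36 and 37, where Cfd was 2.08, 1.23, 1.53 and 2.61. In the other 20 rats Cfd had a lowest, median and highest level of -0.01, 0.76 and 1.42. Among these 20 rats the Pearson r of Cfd and Adipoq was 0.11 (permutation p = 0.703) and the Spearman rho 0.22. No pooled correlation is given because the 4 rats stand apart, and the part of fat cell RNA in the Cfd result was not tested. Of 7 fat markers 6 passed the filter, and their summed level ran from 2.12 to 2.62 in control, 2.04 to 2.63 at 600 ppm, 2.18 to 3.21 at 1000 ppm and 1.98 to 2.84 at 1500 ppm. These markers did not all follow Adipoq. Cidea was 1.59, 0.44, 1.53 and 1.54 in rats 13, 33, 36 and 37. Pnpla2 was the largest part of the sum in every rat but rat 37, where it was lowest of all rats (1.29). Lep was highest in 1500 ppm rat 16 (-4.35), where Adipoq was -8.40. Without the 4 rats, a setting chosen after seeing the data, Cfd differed by 0.23 at 1500 ppm with an unadjusted limma p of 0.283. With the slide as a fixed block the difference turned to -0.18 ± 0.67 (SE), and with the slide as a random block it was 0.48. The call was lost in 13 of 24 fits that left out 1 rat (control rats 1, 2, 21 and 22, 600 ppm rats 26, 27 and 28, 1000 ppm rats 11, 12 and 33, and 1500 ppm rats 17, 36 and 37), and without rat 37 the difference was 0.37.

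C6 is a subunit of the membrane attack complex and was the only terminal pathway gene with a probe among C5, C6, C7 and C8g. Its levels spread more widely than those of most members. In control rats the lowest, median and highest level was -2.51, -1.39 and -0.20. At 600 ppm these were -2.29, -1.05 and 0.95, at 1000 ppm -2.81, -1.05 and 1.04, and at 1500 ppm -1.12, 0.46 and 1.39. At 1500 ppm 3 of 6 rats were above every control rat and the other 3 were within the control range. The mean was -1.41 ± 0.75 in control and 0.30 ± 1.18 at 1500 ppm (SD, n = 6), a 3.28-fold difference of 1.71 ± 0.64 (SE) with a 95% interval from 0.39 to 3.04. The adjusted p in limma was 0.603, and the exact permutation p was 0.0173. C6 was called at 1500 ppm in each of 24 fits that left out 1 rat, where the difference ran from 1.49 to 2.00. With the slide as a fixed block the 1500 ppm difference was 2.58 ± 1.43 (SE) with an unadjusted limma p of 0.0881. In that fit C6 was also called at 600 ppm, by 2.01 ± 0.86 with an unadjusted limma p of 0.0315, against 0.68 without the block. That estimate rests on the 1 rat of 600 ppm on each control slide. The male lay 2.67 above the 3 control males, and the female 1.36 above the 3 control females. Summed mesothelium markers, of which 3 of 5 passed the filter, ran from 1.36 to 3.24 in control and from 1.58 to 3.86 at 1500 ppm, and their part in the result was not tested.

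Among the complement inhibitors, factor I (Cfi) is the soluble protease that inactivates C3b and C4b, Cd55 and Cd59 are anchored on the cell surface, and Serping1 encodes the C1 inhibitor. Cfi was called at all 3 doses, as no other member was. Its lowest, median and highest level was -1.71, -1.04 and -0.25 in control rats. The low-dose rats had -1.06, -0.17 and 0.07, the middle-dose rats -0.26, -0.05 and 0.45, and the high-dose rats -1.03, -0.49 and 0.92. At 1000 ppm 5 of 6 rats lay above all control rats, and the sixth lay just below the highest of these. At 600 and 1500 ppm 3 and 2 rats did.

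The difference of Cfi from control was 0.62 ± 0.29 (SE), 1.00 ± 0.29 and 0.65 ± 0.29 at 600, 1000 and 1500 ppm, which corresponds to 1.54-, 2.00- and 1.57-fold. The unadjusted limma p-values were 0.0405, 0.00215 and 0.0338, and the adjusted ones 0.997, 0.515 and 0.69. The exact permutation p-values were 0.0541, 0.00433 and 0.0952, two-sided, where 0.00216 is the smallest that 6 against 6 can give. The mean of males and of females moved the same way at each dose, males by 0.65, 0.89 and 0.35 at the 3 doses, and females by 0.60 and 0.94 at the lowest and highest of them. Within slides, the 1 rat of 600 ppm lay 1.11 above the 3 control males on their slide and 0.09 above the 3 control females on theirs. With the slide as a fixed block the differences were 0.60, 0.92 and 0.51, and none of them was called. With a normexp background correction the difference at 600 ppm was 0.58, just under 1.5-fold. The call at 1000 ppm stood without any 1 rat, with differences from 0.85 to 1.14. That at 600 ppm was lost in 8 of 24 such fits, namely without control rat 2, 3, 21 or 23 or 600 ppm rat 6, 8, 27 or 28, and that at 1500 ppm in 5, without control rat 2, 21 or 23 or 1500 ppm rat 36 or 37. The difference at 1500 ppm was 0.40 without rat 36 and 0.24 without the 4 rats of high Adipoq, and the latter had an unadjusted limma p of 0.366. Heart muscle markers, of which 7 of 8 passed the filter, overlapped widely between groups. Their summed level had a median of 2.73 in control rats and of 3.94, 5.61 and 3.37 at 600, 1000 and 1500 ppm. It ran from 1.78 to 5.18 in control and from 2.35 to 5.91, 3.09 to 6.97 and 1.81 to 6.99 at these doses. The mean of 7 of 7 was higher at each dose. Of the 7, 3 were called at 1000 ppm, Actc1 by 1.26, Tnnt2 by 2.48 and Tnni3 by 2.02, and 0 at the other doses. The adjusted limma p-values of these 3 calls were 0.516, 0.548 and 0.517. Their part in the Cfi result was not tested.

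Cd55, Cd59 and Serping1 were called at no dose. The differences of Cd55 were 0.17, -0.02 and -0.12 at the 3 doses, those of Cd59 -0.05, -0.04 and -0.11, and those of Serping1 0.09, 0.06 and 0.09. Serping1 stayed between 4.51 and 4.93 in all 24 rats.

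**Figure D3:**
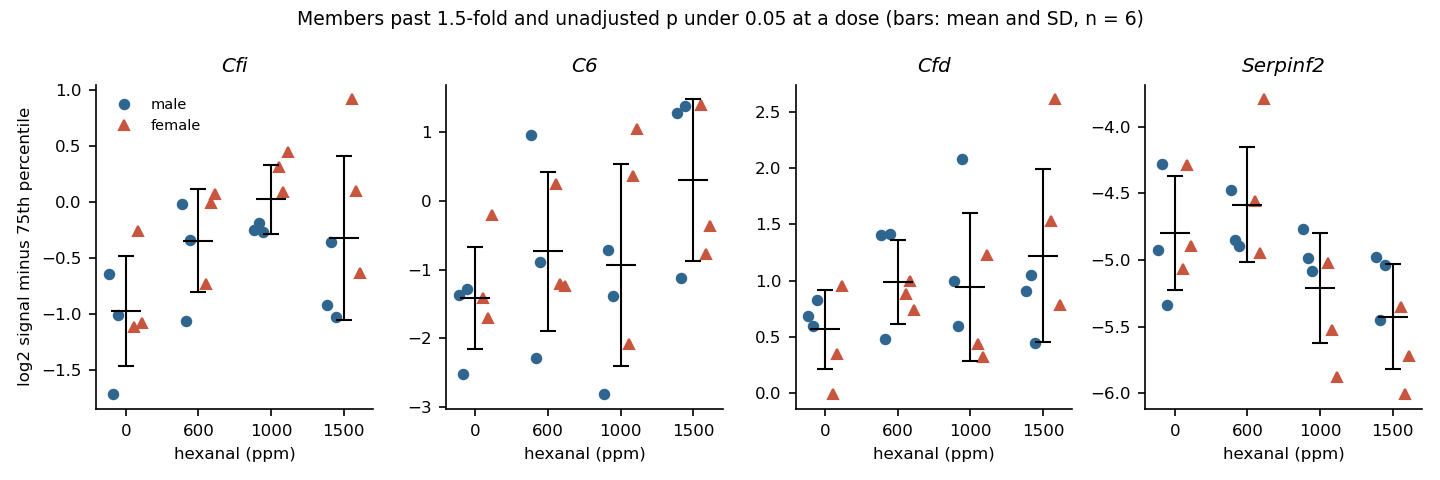
Level of Cfi, C6, Cfd and Serpinf2 in each rat by hexanal dose, males as circles and females as triangles, with the mean and SD of 6 rats as bars. At 1000 ppm all Cfi points but 1 lie above the control points, whereas the C6 points at 1500 ppm fall into an upper 3 and a lower 3, and the exposed Cfd points reach 2.61 in a single rat.

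The receptors for the released peptides C3a and C5a, C3ar1 and C5ar1, draw and activate leukocytes. C3ar1 differed from control by 0.17, 0.07 and 0.34 at the 3 doses and C5ar1 by 0.00, -0.10 and -0.10, with 0 calls. Across 24 rats their levels had an r of 0.20 (adjusted permutation p = 0.445) and a rho of 0.15 (adjusted permutation p = 0.546).

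Coagulation begins in tissue when factor III (F3, tissue factor) meets factor VII, and proceeds through factor X and prothrombin (F2) with factor VIII as a cofactor. Of 10 listed clotting factor genes, including the thrombin receptor F2r, 8 had a probe, 7 passed the filter and 0 were called at any dose. F2 was called higher when the slide was a fixed block, at 600 ppm by 0.90 ± 0.37 (SE) and at 1000 ppm by 1.20 ± 0.49, with unadjusted limma p-values of 0.0268 and 0.0257. Its differences without the block were 0.25 and 0.31. On each control slide lay 1 rat of 600 ppm, and the blocked estimates reach control through these rats. F2 was -1.61 in the female, 600 ppm rat 26, against a mean of -3.3 in control females. In the male, 600 ppm rat 6, it was -3.20 against -3.3 in control males. The F2 calls thus rest largely on rat 26, which also had the highest Alb level. The part of liver RNA in them was not tested. F8, which lung endothelium makes, had a lowest, median and highest level of 0.08, 0.12 and 0.22 in control rats and -0.25, -0.18 and 0.16 at 600 ppm. There 5 of 6 rats lay below all control rats, and the difference was -0.25 ± 0.09 (SE) with an unadjusted limma p of 0.0113, an adjusted p of 0.997 and an exact permutation p of 0.0108. This is a 1.19-fold difference, short of 1.5-fold, and at 1000 and 1500 ppm the difference was -0.09 and 0.05. The within-slide values of F8 at 600 ppm were -0.40 in males and -0.33 in females, with 1 rat against 3 each.

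F3 fell short of the fold rule too. Its lowest, median and highest level was 2.65, 3.04 and 3.35 in control rats and 2.41, 2.67 and 2.80 at 1500 ppm, where 2 rats lay below all control rats. The difference was -0.38 ± 0.17 (SE), with an unadjusted limma p of 0.0369, an adjusted p of 0.692 and an exact permutation p of 0.0216. F3 differed by -0.64 in males and -0.12 in females, and with the slide as a fixed block it was -0.85 ± 0.29 and passed the fold rule. F2r was higher by 0.37 ± 0.19 at 1500 ppm (unadjusted limma p = 0.0633, exact permutation p = 0.0325), and the lower of its 2 probes differed by 0.22.

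Several factors made mainly by the liver were high in single rats, not all of them in the same one. In 600 ppm rat 26 the level of Serpinc1 (antithrombin) was -1.66, of F2 -1.61 and of F12 -3.20, each the highest of 24 rats. In the same rat Alb, the liver's albumin gene, was 2.37, and its summed hepatocyte markers were the highest at 3.41. The next highest Serpinc1 levels, in control rat 2 (-3.98), 1000 ppm rat 13 (-4.76) and 600 ppm rat 27 (-4.91), went with Alb levels of 0.31, -0.97 and -1.34, the next highest of Alb in the same order. In rat 26 Proc, another gene of the liver, was at its lowest of 24 rats (-6.46), A2m was lowest of its group (-6.33), and F10 was highest in 1500 ppm rat 36 (-4.81). The part of liver RNA in these values was not tested. Of 8 hepatocyte markers 6 passed the filter, and their sum ran from 1.31 to 2.46 in control, 1.37 to 3.41 at 600 ppm, 1.46 to 2.03 at 1000 ppm and 1.53 to 2.50 at 1500 ppm. In all rats but 600 ppm rat 26 Cyp2e1 was the largest part of this sum. The 2.50 belonged to 1500 ppm rat 37, where Cyp2e1 was 2.24 and Alb -3.62. F7 did not follow the order of Alb. It was well above background on 1 array at 600 ppm and 1 at 1500 ppm only, and its highest level was -3.26 in 600 ppm rat 28, where Alb was -5.11. Serpinc1 was well above background on 3, 2, 2 and 0 of 6 arrays in the control, 600, 1000 and 1500 ppm groups. The control mean of Serpinc1 was -6.17 and the 1500 ppm mean -7.26, with no test because it did not pass the filter. The background floor of the 1500 ppm arrays was -6.78, and the control mean lay 1.53-fold above this floor. As only 3 of 6 control arrays were well above background, 1.53-fold is not a strict lower bound of the difference. It rests largely on control rat 2, without which the control mean was -6.60 and lay 1.13-fold above the floor. Of the 6 control rats 4 lay above the floor. F10 was well above background on 3, 4, 6 and 4 arrays.

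The anticoagulants hold clotting in check on the vessel wall. Tissue factor pathway inhibitor (Tfpi) blocks factor VIIa, and thrombomodulin (Thbd) with the endothelial receptor Procr turns protein C (Proc) into its active form, with protein S (Pros1) as cofactor. Of 6 genes 5 passed the filter and 0 were called at any dose. Their differences ran from -0.14 to 0.13 at 600 ppm, -0.13 to 0.65 at 1000 ppm and -0.41 to 0.15 at 1500 ppm. The highest was Proc at 1000 ppm, 0.65 ± 0.37 (SE), with an exact permutation p of 0.152. The lowest was Procr at 1500 ppm, -0.41 ± 0.22 (exact permutation p = 0.113). Some other settings gave calls here. Procr was called lower at 1500 ppm when the slide was a fixed block, with a difference of -0.97 ± 0.36 (SE) and an unadjusted limma p of 0.0158. Proc was called at 1000 ppm with the series table (0.73) and with array weights (0.80). Thbd and Procr had an r of 0.39 across 24 rats, with an adjusted permutation p of 0.086, and an r of 0.03 once centred on dose group and sex.

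Plasmin, made from plasminogen (Plg) by the activators Plat and Plau, dissolves fibrin. Plaur is the cell surface receptor of Plau, and Serpinf2 encodes alpha-2-antiplasmin, the main fast inhibitor of plasmin, with A2m as a broader protease trap. Serpinf2 was the member called lower. Its lowest, median and highest level was -5.34, -4.91 and -4.28 in control rats. The low-dose rats had -4.95, -4.70 and -3.79, the middle-dose rats -5.88, -5.05 and -4.77, and the high-dose rats -6.01, -5.40 and -4.98. At 1500 ppm 4 of 6 rats lay below all control rats, 5 of 6 arrays were well above background, and the difference was -0.63 ± 0.23 (SE), or 1.54-fold lower, with an adjusted p of 0.603 in limma (exact permutation p = 0.0216). Females differed by -0.94 and males by -0.31. With the slide as a fixed block the difference was -0.12, with a normexp background correction -0.37, and without the 4 rats of high Adipoq -0.50, none of them called. The call was also lost without control rat 2 or 22 or 1500 ppm rat 37 or 38, in fits that gave differences of -0.52, -0.52, -0.51 and -0.57.

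The comparison of 1000 with 600 ppm has 4 rats of each dose on 2 shared slides. Serpinf2 alone of 36 members was called here, 1 lower and 0 higher, against 0.0612% of all genes lower and 0.569% higher. It was lower by 1.54-fold, a difference of -0.63 ± 0.23 (SE), with an adjusted p of 1 in limma and an exact permutation p of 0.0173, and 5 of 6 rats at 1000 ppm lay below all 600 ppm rats. No member had 6 rats apart from the other 6 (0.127% of all genes). Within the shared slides the difference was -0.01 in 2 against 2 males and -0.91 in 2 against 2 females. With the slide as a fixed block it was -0.46 and was not called, and it was not called without 600 ppm rat 28 or 1000 ppm rat 32 or 33. F8 differed by 0.16 and Proc by 0.65 between these doses, with unadjusted p-values of 0.0936 each in limma.

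The other fibrinolytic genes were not called. Plat fell short of 1.5-fold at 1500 ppm with a difference of -0.29 ± 0.13 (SE), an unadjusted limma p of 0.0424 and an adjusted p of 0.7, and 3 of 6 rats below all control rats. Plau differed by -0.26 ± 0.14 at 1000 ppm (exact permutation p = 0.0498), with -0.49 in males and -0.04 in females. Plg differed by 0.14, 0.18 and 0.12 at the 3 doses. A2m, C6 and Proc had the largest spread in clean air, with control SDs of 1.18, 0.75 and 0.76. A2m was well above background on 3 control arrays and 5, 6 and 5 of the exposed arrays, and its 2 probes gave differences of 0.75 and 1.11 at 600 ppm, where the former had the higher mean signal. A2m was called at 600 ppm with the mean of its probes (0.93) and with array weights (1.11). It met the filter through the exposed groups alone, so these calls of a higher level are not independent of the filter.

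A straight line over 0, 600, 1000 and 1500 ppm tested for a dose trend in all 24 rats. No member had an adjusted p-value under 0.05 in limma, and 4 had an unadjusted p-value under 0.05. Of these 2 of 36 had a positive and 2 a negative slope, where 4.75% of all genes passed that rule with a positive slope and 3.74% with a negative one. Serpinf2 had a slope of -0.48 ± 0.16 (SE) per 1000 ppm (unadjusted p = 0.00591, adjusted p = 0.45). C6 had a slope of 1.02 ± 0.41 (unadjusted p = 0.0193) and Cfi one of 0.49 ± 0.20 (unadjusted p = 0.0219). Plat had -0.21 ± 0.09 (unadjusted p = 0.0268). With the slide as a fixed block the slopes of Serpinf2, C6 and Cfi were -0.06, 1.81 and 0.40.

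C1qa, C1qb, C1qc and C2 of the classical pathway were lower in females than in males, as were Cfp of the alternative pathway, Thbd, Plat and Plaur, although on slide means no member passed. With dose group in the fit and the slide as a random block, 8 of 36 members had an adjusted p-value under 0.05, all of them lower in females, and 0 were higher. Among all genes 4.49% were lower and 8.8% higher in females by the same rule. The median difference was -0.09 for the members and 0.03 for all genes. By role, 4 of 7 classical pathway genes were called, 1 of 4 of C3 and the alternative pathway, 1 of 5 anticoagulants and 2 of 6 fibrinolysis genes. C1r and C1s differed by -0.04 and -0.09 and C4a by 0.13, and were not called.

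C1qa had a lowest, median and highest level of 0.31, 0.74 and 1.03 in 12 females and 0.73, 1.11 and 1.34 in 12 males. For C1qb the females ran from 2.05 to 2.62 with a median of 2.41, and the males had a median of 2.75 and reached 2.89. C1qc ran over -1.47, -1.08 and -0.67 in females against -1.05, -0.53 and -0.21 in males. For each of the 3 the sexes overlapped, with 5, 6 and 7 of 12 females below every male. The female minus male difference was -0.38 ± 0.09 (SE) for C1qa, -0.31 ± 0.09 for C1qb and -0.50 ± 0.12 for C1qc, with adjusted p-values of 0.01, 0.0213 and 0.0111 in limma.

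Plaur showed the smallest p-value. Its lowest, median and highest level was -3.36, -3.08 and -2.65 in females and -3.09, -2.54 and -2.18 in males, a difference of -0.46 ± 0.11 (SE) or 1.38-fold, with an adjusted p of 0.00953 in limma, and its 2 probes gave -0.46 and -0.42. With a normexp background correction the difference was -0.20 with an adjusted p of 0.446 in limma. C2 differed by -0.35, Plat by -0.29, Thbd by -0.25 and Cfp by -0.21, with adjusted p-values from 0.0187 to 0.0485. For Thbd 9 of 12 females lay below all males, and its 2 probes gave -0.25 and -0.45. The calls of C1qa, C1qb, C1qc, C2 and Plaur stood in each of 24 fits that left out 1 rat. That of Cfp stood in 7 such fits, those without control rat 2 or 21, 600 ppm rat 26 or 1500 ppm rat 17, 18, 36 or 38. The call of Plat was lost without control rat 3, 21 or 22, 1000 ppm rat 12, 31 or 32 or 1500 ppm rat 17, 18 or 36, and that of Thbd without control rat 22, 1000 ppm rat 11, 12, 31 or 32 or 1500 ppm rat 16. In clean air alone, with 3 rats a sex, the female mean was already lower by 0.72 for Plaur, 0.43 for C1qa, 0.21 for C1qb and 0.46 for C1qc.

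Since a slide held 1 sex, sex rests on 3 slides against 3. For all 8 genes the 3 slide means of females lay below the 3 of males. These genes were picked as lower in females on the same arrays, so the slide means are no separate support. Among members not called, Pros1 and Plau had the same order of slide means, and F2 and F10 the opposite one. Tested on slide means paired by their dose make-up, a setting chosen after seeing the data, the 8 differences had the same values, and 0 of 36 members passed an adjusted p of 0.05 in limma, with unadjusted p-values from 0.00419 for C1qc to 0.104 for Cfp. Summed macrophage and monocyte markers, of which 9 of 10 passed the filter, had a lowest, median and highest level of 2.46, 2.75 and 2.99 in females and 2.81, 2.94 and 3.30 in males. Of the 9 markers 7 were lower in females and 2 were called, Mrc1 by -0.58 with an adjusted p of 0.00457 and Cd68 by -0.40 with an adjusted p of 0.034 in limma. Of 7 endothelial markers 5 were lower in females and 2 were called, Cldn5 by -0.63 with an adjusted p of 0.0033 and Cdh5 by -0.37 with an adjusted p of 0.0194 in limma, while the summed level had a median of 6.28 in females and 6.30 in males. Of 9 epithelial markers 6 were lower in females and 2 were called, Napsa by -0.23 and Ager by -0.31. All 4 erythroid markers were lower in females, and Alas2 was called by -0.92 with an adjusted p of 0.0141 in limma. Of 6 fibroblast markers 4 were lower and 1 was called, Pdgfra, which was higher by 0.24. Platelet markers were higher in females for 4 of 4 genes, and 2 were called, Pf4 by 0.50 and Gp9 by 0.32. The part of these cell types in the sex difference was not tested.

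**Figure D4:**
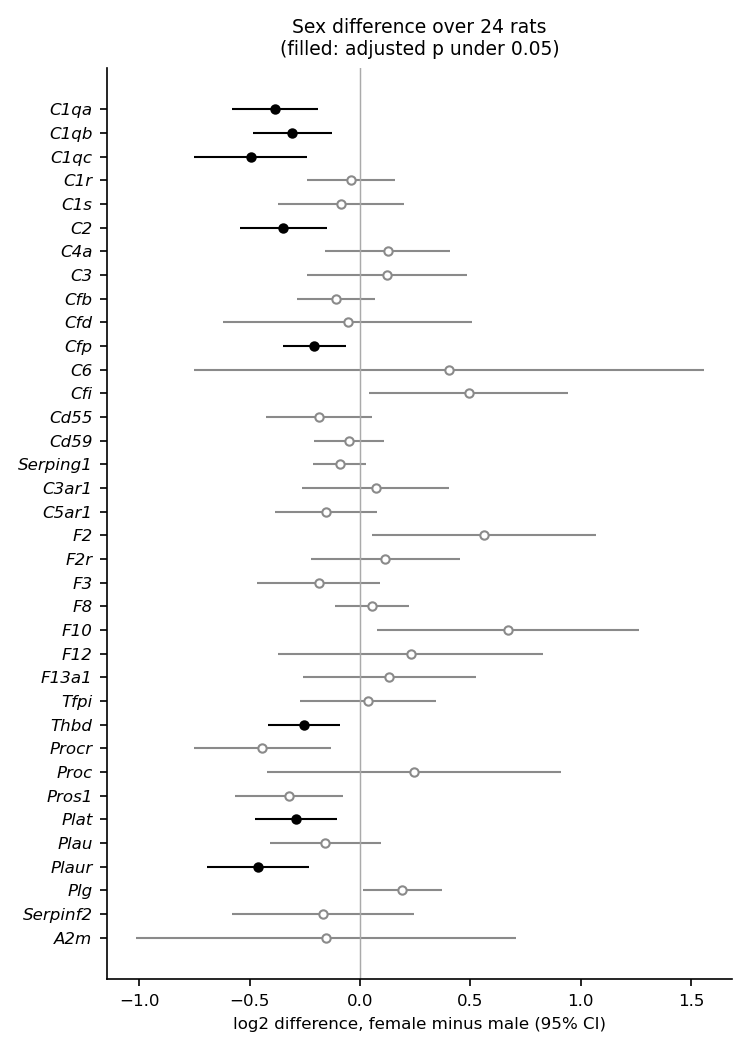
Female minus male difference of each of the 36 members over 24 rats on the log2 scale with its 95% interval, genes in order of role. The 8 filled points have an adjusted p-value under 0.05 and all lie left of 0, from -0.50 for C1qc to -0.21 for Cfp, while the points to the right of 0, up to 0.67 for F10, have open markers.

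The effect of 1500 ppm was compared between females and males in a fit of 8 groups of 3 rats. Of 36 members 1 passed an adjusted p of 0.05, against 5.02% of all genes. This was Pros1. In females it was -2.86 ± 0.07 in control and -3.46 ± 0.25 at 1500 ppm (SD, n = 3), and in males -2.93 ± 0.08 and -2.70 ± 0.15. The 3 females at 1500 ppm, at -3.71, -3.47 and -3.20, lay below all other rats except 1000 ppm female rat 32, at -3.40. The female effect minus the male effect was -0.83 ± 0.22 (SE) with an adjusted p of 0.0378 in limma. At 600 and 1000 ppm 0 members passed for this difference, with 2 and 3 members at an unadjusted p under 0.05 in limma, and neither did any of the 21255 genes. Of all genes 4.99% and 9.41% had such an unadjusted p at these doses, so the members' counts lie near or below the background. For Pros1 the adjusted p was above 0.05 under 7 other settings, among them scaling to the array median (-0.81, adjusted p = 0.0723), quantile normalization (-0.82, adjusted p = 0.0725) and the slide as a random block (-0.89, adjusted p = 0.0887) or fixed block (-1.54, adjusted p = 0.135) in limma. It was also above 0.05 in 10 of 24 fits that left out 1 rat, namely any control rat or 1500 ppm rat 16, 18, 36 or 37, where the difference ran from -0.88 to -0.71.

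C3ar1 and Plaur had the next smallest p-values. The female minus male difference of the 1500 ppm effect was -0.86 ± 0.31 (SE) for C3ar1 with an adjusted p of 0.121 in limma, and 0.64 ± 0.25 for Plaur with an adjusted p of 0.153. C3ar1 in control males was -5.86 ± 0.47 and in control females -5.10 ± 0.0025 (SD, n = 3), and at 1500 ppm the means were -5.09 and -5.19. Plaur in males went from -2.33 in control to -2.82 at 1500 ppm, and in females from -3.05 to -2.91.

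**Figure D5:**
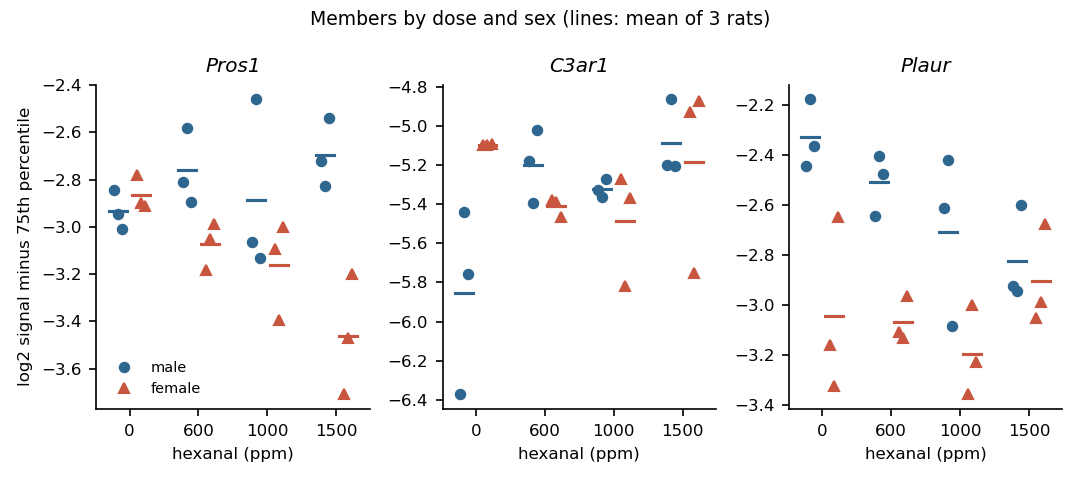
Level of Pros1, C3ar1 and Plaur by hexanal dose, males as circles and females as triangles, with a line at the mean of 3 rats. At 1500 ppm the mean of Pros1 is -3.46 in females and -2.70 in males, and the gap between the sexes in Plaur is 0.72 in control and 0.08 at 1500 ppm.

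Other pairs of genes were fixed for the set as well. C3 and Cfb had an r of 0.39 (adjusted permutation p = 0.119) and a rho of 0.49 (adjusted permutation p = 0.0396). Plau and Plaur had an r of 0.26 (adjusted permutation p = 0.233). F13a1, a factor XIII subunit that macrophages make, and the macrophage receptor Mrc1 had an r of -0.28 (adjusted permutation p = 0.233). Centred on dose group and sex, the r of F13a1 and Mrc1 was -0.035. C3 with C4b could not be tested without a C4b probe.

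A further list of 73 complement, coagulation and fibrinolysis genes gives the surroundings. Of these 65 had a probe and 49 passed the filter. At 600 ppm 0 of 49 were called, at 1000 ppm 2 were higher, and at 1500 ppm 1 was lower, against 1.29% of all genes higher at 1000 ppm and 0.522% lower at 1500 ppm. None had an adjusted p under 0.05 in limma, and 1, 5 and 5 had an unadjusted p under 0.05, against 4.33%, 8.99% and 6.97% of all genes. C9, the pore subunit of the membrane attack complex, had a lowest, median and highest level of -6.38, -4.04 and -2.42 in control and -3.47, -2.66 and -1.74 at 1000 ppm. The C9 difference was 1.61 ± 0.57 (SE) with an adjusted p of 0.515. Kng1, the kininogen gene, differed by 0.60 ± 0.29 at 1000 ppm. The male part of this was 1.12 and the female part 0.09. Fgg, the fibrinogen gamma chain, ran over 0.56, 1.02 and 1.69 in control and -0.26, 0.60 and 0.87 at 1500 ppm, a difference of -0.70 ± 0.26 with an adjusted p of 0.603 in limma.

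The integrin gene Itgb3 of platelets was the 1 gene of that list in which 6 rats did not overlap with control, against 0.48% of all genes at 1500 ppm. Its level was -3.64 to -3.43 in control and -3.89 to -3.66 at 1500 ppm, with a difference of -0.27 ± 0.08 (SE) and an adjusted p of 0.405 in limma, and -0.15 at 600 ppm. Fcnb, a ficolin of the lectin pathway, differed by 0.41 ± 0.20 at 600 ppm (exact permutation p = 0.0866), and Colec12, a scavenger receptor with a collectin domain, by -0.22 ± 0.08 at 1000 ppm (exact permutation p = 0.0325). Between the sexes 2 of 49 genes of the list were higher and 3 lower in females at an adjusted p under 0.05 in limma, against 8.8% and 4.49% of all genes.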

How the data were processed

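Lung total RNA of 24 rats was hybridized singly to one-colour Agilent 4x44K rat arrays. The deposited scanner files of the authors hold a processed signal intensity for each spot, background-subtracted by Agilent's feature extraction software, and the authors' series table holds the same linear intensity values, equal within a relative 0.001 for 99.69% to 99.82% of probes per array. Methylation arrays of the study are not analysed here.

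Control spots and 7503 outlier spots were left out, repeated spots were averaged per probe, and the 75th percentile of each array was subtracted from its log2 processed signals. Kept were 23616 of 30367 probes, those clearly above background on no fewer than 5 arrays of some group of 6. Accessions matched 18355 probes to 15443 symbols of the RefSeq table for GRCr8, and each gene was read from its brightest probe. The 24 arrays were fitted on 4 dose groups with lmFit and eBayes (limma 3.58.1, R 4.3.3), with Benjamini-Hochberg adjustment over all 21255 genes or unnamed probes. A call needed at least 1.5-fold and an unadjusted p under 0.05, the threshold of the study, for dose comparisons, and an adjusted p under 0.05 for the trend, the sex term (slide as a random block, correlation 0.129) and the sex by dose contrast (8 groups). Permutation tests were two-sided, exact for 6 against 6 rats. The scripts were tested on simulated data.

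The members, gene lists and tests were chosen with earlier results of these data known. Named with values were called members, the 4 members with the smallest p at each dose, the 3 for the other contrasts, the 3 with the largest control SD, members not passing the filter, and likewise the other genes called or with the smallest p. Alternatives covered background correction, scaling, filters, probe choice, the methods' t-test, adjusted p, sex, slide, array weights and leaving out each rat. Chosen after seeing the data were fits without rats of high Adipoq and sex on slide means. The number of arrays limits the precision. The result of 1 of the 11 pairs is not reported here.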

Additional observations from a re-analysis of the deposited data

Results flagged for a closer look

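In 36 members and 4 dose groups of 6 rats, 10 of the 144 groups tested had a lowest or highest rat that stood apart by Dixon's ratio of its gap to the group's range, where chance flags about 1 in 20. Most of them were in 600 ppm rat 26. C1qb was low in 600 ppm rat 27 (ratio 0.637), at 2.10 against 2.58 for the nearest rat. Plau was low in 1000 ppm rat 13 (ratio 0.647), at -3.43 against -2.94. F3 was low in 600 ppm rat 26 (ratio 0.676), at 2.02 against 2.81. Cfb and Cd55 were low in the same rat (ratios 0.627 and 0.639), at 4.85 against 5.05 and -0.77 against -0.30, and F12 was high there (ratio 0.69), at -3.20 against -5.13. Plat was high in 600 ppm rat 7 (ratio 0.696), at 3.25 against 3.11. C3ar1 was low in 1000 ppm rat 32 (ratio 0.824), at -5.82 against -5.37. Proc (ratio 0.717) and A2m (ratio 0.652) were low in 600 ppm rat 26, at -6.46 and -6.33, where neither was well above background. Rat 26 is also the rat with the highest Alb level.

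The effect of 1500 ppm on Pros1 differed between females and males by -0.83, by the limma contrast across 8 groups. It was the 1 of 36 members with an adjusted p under 0.05, against 5.02% of all genes. The adjusted p was above 0.05 under 7 of 10 other settings and in 10 of 24 fits that left out 1 rat. The control and 1500 ppm rats of each sex lay on separate slides, so this contrast cannot be told apart from the slide.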

How the results depend on the processing

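Of 1098 values of single genes under other settings, 962 kept their direction and side of the threshold, 131 fell short of it, 4 newly passed it and 1 reversed, that of Cfd at 1500 ppm, which was -0.18 with the slide as a fixed block. At 600 ppm, where 1 member was called, 0 were called with normexp and with an adjusted p, and 2 with the mean of probes, slide fixed or array weights. At 1000 ppm, with 1 called, there were 2 with the series table or array weights and 0 with an adjusted p. At 1500 ppm, with 4 called, there were 2 with the series table, the methods' t-test, the 2 groups alone or array weights, 2 with the slide fixed (F3 and Procr, both lower), 1 with the slide random (C6), 1 without rats of high Adipoq (C6) and 0 with an adjusted p. For 1000 against 600 ppm, with 1 called, there were 0 with normexp, an adjusted p or the slide fixed. A filter on all 24 arrays also gave 0, but it removed Serpinf2, which was therefore not tested there. For the sex difference of the 1500 ppm effect, with 1 member, there were 0 with normexp, quantile or median scaling, the series table, no filter or a slide block, and 2 with array weights. For sex, with 8 members, there were 2 with normexp, 13 without the slide block and 0 on slide means. The trend had 0 members throughout. Of 11 pairs 6 passed, 5 centred on sex too and 7 after quantile normalization. The 6 include Cfd with Adipoq, whose pooled correlation is not given because the rats of high Adipoq stand apart.

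Leaving out 1 rat, the counts ran from 0 to 2 at 600 ppm, 1 to 2 at 1000 ppm, 1 to 4 at 1500 ppm, 0 to 2 for 1000 against 600 ppm, 0 to 0 for the trend, 0 to 1 for the sex difference of the 1500 ppm effect and 5 to 9 for sex. At 1500 ppm 1 remained called without control rat 2 or 1500 ppm rat 37, and 2 without control rat 21 or 22 or 1500 ppm rat 36. For sex 5 members passed without control rat 22 or 1000 ppm rat 12, 31 or 32. The causes were not tested. The median of all genes at 1000 ppm was shifted by -0.12 with normexp, with 74 genes called higher and 352 lower against 275 and 73, and by 0.11 with the series table, with 539 and 30. The groups share no replicate numbers, so no fit with a replicate block was made, and rats of different groups were tied only by the slide. Levels near background limit F10, F12, Proc, A2m and Serpinf2, which were not well above it on every array.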
